A study of Mus musculus with 18 samples.

Results

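The genes described here were 42 members of the Wnt pathway, chosen by symbol from the 55357 genes of the deposited table. They comprised 12 Wnt ligands, 12 receptors (10 Frizzled genes, Lrp5 and Lrp6), 9 antagonists, 5 feedback targets and 4 transducers. All 42 were present in the table, and 41 had enough reads to be tested. Dkk4, which encodes a secreted inhibitor of the Lrp co-receptors, was the 1 member below that limit.

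The measurements were bulk mRNA profiles of back skin from 18 FVB mice aged 6 months, 1 library per mouse. Of these, 6 mice were wild type (WT), 6 carried exogenous IKKα in the nuclei of their keratinocytes (N-IKKa), and 6 carried it in the keratinocyte cytoplasm (C-IKKa). IKKα is a kinase encoded by Chuk that acts in NF-kB signalling and in keratinocyte differentiation. The promoter that drove the transgenes, the number of founder lines and any shared litters are not given in the sources used here, so p values measure the spread between these mice.

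Wnt proteins are secreted lipid-modified ligands that bind Frizzled receptors and the co-receptors Lrp5 and Lrp6. In the canonical branch, binding stabilises β-catenin (Ctnnb1), which enters the nucleus and acts with TCF/LEF factors to switch on targets, several of which feed back to restrain the signal. In skin, Wnt signalling is required for hair follicle formation and for the start of a new growth phase, and noncanonical ligands such as Wnt5a act on cell movement and polarity.

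Depth ran from 11.15 to 12.63 M counted reads per library for WT, from 12.0 to 14.61 M for N-IKKa and from 12.65 to 15.69 M for C-IKKa. Every C-IKKa library was therefore deeper than every WT library, and the part of depth in the results was not tested. Hair state differed between libraries. The mean log2 value of 29 hair shaft genes was between 9.71 and 12.0 in 6 libraries, called growing-hair here, and between 1.85 and 4.88 in the other 12, called resting-hair. The growing-hair libraries were 3 of N-IKKa (8, 9 and 11), 2 of WT (1 and 4) and 1 of C-IKKa (14). All 6 of these libraries were read as female from the Y-linked gene Ddx3y, against 4 of the 12 resting-hair libraries (WT 2 and 5, N-IKKa 10 and C-IKKa 18). Median Chuk levels were 989 (WT), 1021 (N-IKKa) and 885 (C-IKKa) normalized counts, and the limma adjusted p against WT was 0.969 for N-IKKa (log2 fold change −0.018) and 0.948 for C-IKKa (−0.17). Chuk counts thus did not mark the transgenic groups. Whether transgene reads were counted under Chuk was not tested, so these values do not show whether the transgenes were expressed.

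Promoter windows are shown for the 4 members on which the results below turn: Wnt11 and Fzd5, with the widest separation between hair states, and Wif1 and Wnt10b, which separated C-IKKa from the other groups in resting-hair skin. Windows of 300 bases, from 250 bases before to 50 bases after the start of transcription, came from RefSeq (mouse build GRCm38.p6) and were found for 26 of the 42 members, 32 windows in all. Capitals mark a TCF/LEF motif (CTTTGAT or CTTTGAA, searched on both strands) in Wnt11 and NF-kB motifs in Fzd5 and Wnt10b. Wnt11 had a second listed window, without either motif. The windows were chr7:98834862-98835161 (plus strand) for Wnt11, chr1:64737701-64738000 (minus) for Fzd5, chr10:121033754-121034053 (plus) for Wif1 and chr15:98778101-98778400 (minus) for Wnt10b.
Wnt11: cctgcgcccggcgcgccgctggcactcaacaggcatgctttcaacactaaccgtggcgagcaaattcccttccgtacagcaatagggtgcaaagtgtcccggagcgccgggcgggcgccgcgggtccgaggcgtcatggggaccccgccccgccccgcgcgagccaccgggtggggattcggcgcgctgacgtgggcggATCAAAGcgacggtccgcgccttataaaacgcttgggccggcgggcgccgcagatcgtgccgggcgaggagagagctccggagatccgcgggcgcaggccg
Fzd5: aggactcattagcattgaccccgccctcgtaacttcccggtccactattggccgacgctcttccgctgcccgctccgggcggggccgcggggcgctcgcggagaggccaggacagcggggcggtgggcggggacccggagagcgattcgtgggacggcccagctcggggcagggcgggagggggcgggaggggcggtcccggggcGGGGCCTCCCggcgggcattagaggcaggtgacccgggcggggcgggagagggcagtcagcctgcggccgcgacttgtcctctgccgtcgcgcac
Wif1: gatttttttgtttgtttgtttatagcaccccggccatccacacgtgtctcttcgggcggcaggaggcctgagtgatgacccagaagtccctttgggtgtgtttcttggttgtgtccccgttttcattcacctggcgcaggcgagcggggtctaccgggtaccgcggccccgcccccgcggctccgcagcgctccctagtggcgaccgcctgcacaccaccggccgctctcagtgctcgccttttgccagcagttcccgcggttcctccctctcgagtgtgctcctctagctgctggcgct
Wnt10b: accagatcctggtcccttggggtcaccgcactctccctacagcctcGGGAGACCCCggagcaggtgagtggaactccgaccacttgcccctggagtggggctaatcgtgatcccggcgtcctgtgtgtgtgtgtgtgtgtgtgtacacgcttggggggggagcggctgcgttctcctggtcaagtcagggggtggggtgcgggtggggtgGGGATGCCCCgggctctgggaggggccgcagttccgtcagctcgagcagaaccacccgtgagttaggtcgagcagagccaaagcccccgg
The Wnt11 match, ATCAAAG on the strand shown, lay at −51 from the start, and the Wif1 window held neither motif. The Wnt10b window held an NF-kB match at −204 and another at −40, and the Fzd5 match lay at −45. A TCF/LEF match was present in 6.25% of the members' windows (2 of 32, Wnt11 and Wnt5b) and in 8.65% of 32851 windows of all genes. An NF-kB match was present in 18.8% of the members' windows (6 of 32, which also included Kremen2, Sfrp2, Tcf7l2 and Wnt16) and in 8.46% of all windows. These matches describe letters in the reference and were not tested as binding sites.

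Wnt genes of every role except the pathway's transducers were mixed in their relation to hair state. Of the 41 members tested, 11 were higher in every growing-hair library than in any resting-hair library (26.8%), where 8.45% of all 17667 tested genes separated in this way. None of the 41 was lower in every growing-hair library, against 5.25% of all tested genes. The 11 were the ligands Wnt11 and Wnt5a, the receptors Fzd5, Fzd10 and Fzd1, the antagonist Sfrp1, the feedback target Nkd2, and all 4 transducers. The median difference between hair states over the 41 members was 0.41 on the log2 scale, beside −0.0089 over all tested genes, with 25 members higher in median in growing-hair skin and 16 lower. Because the hair states were read from the libraries themselves, these values are described and not tested. In bulk skin, fewer cells of a type and less RNA per cell cannot be told apart.

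Growing hair and female sex overlapped in these mice. Set against the 4 resting-hair female libraries alone, the 6 growing-hair libraries stood above for 14 members, the same 11 together with Wnt4, Kremen1 and Nkd1, where 13% of all tested genes did so. They stood below for 1 member, Dkk2, where 9.65% of all tested genes did so. The sign of the median difference was the same in both comparisons for 38 of the 41 members, the exceptions being Wnt10a, Fzd7 and Sfrp2.

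**Figure D1:**
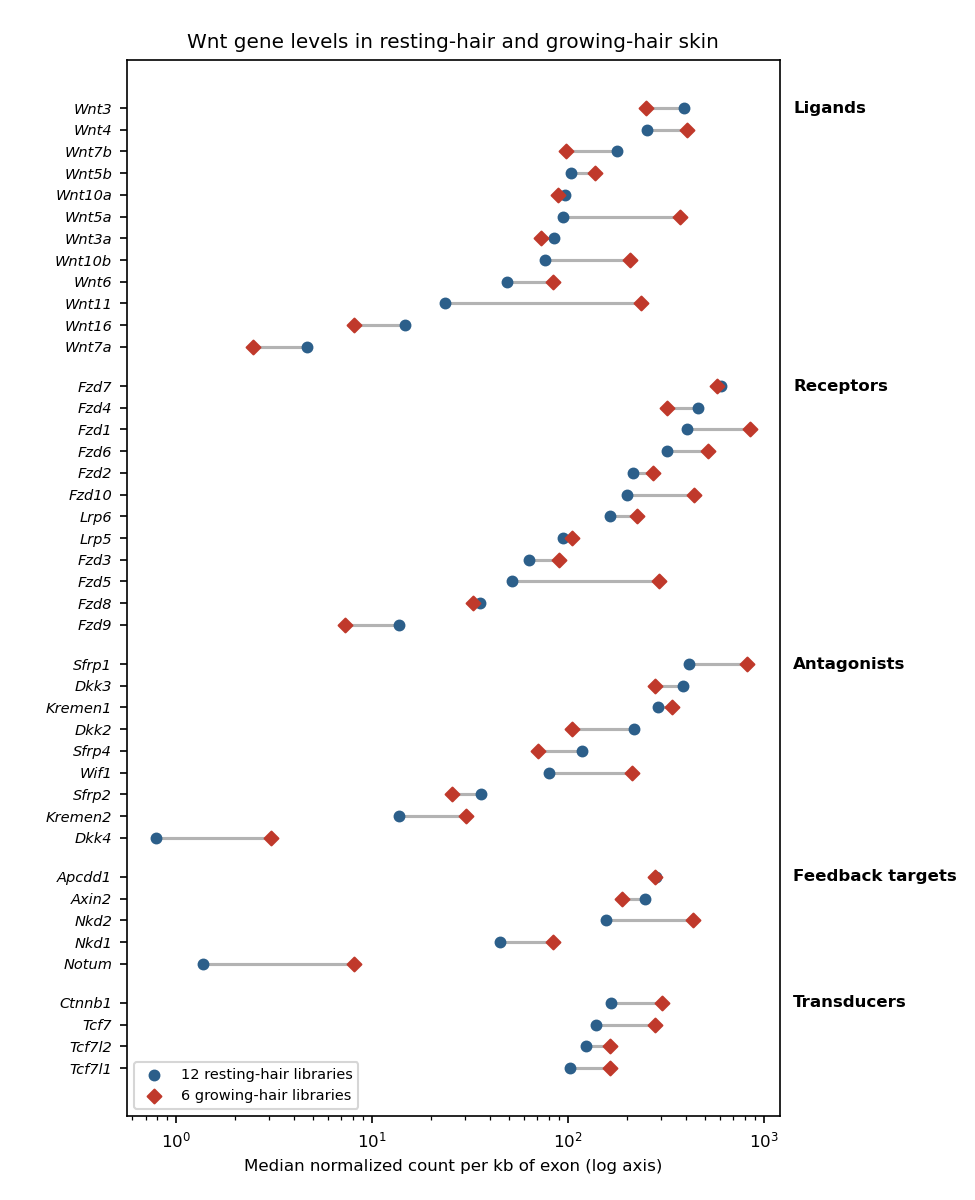
Median normalized count per kilobase of exon (log axis) of the 42 Wnt members in 12 resting-hair (circles) and 6 growing-hair (diamonds) libraries, grouped by role. Wnt11, Fzd5, Wnt5a and all 4 transducers lie to the right in growing-hair skin, whereas Fzd7 and Apcdd1 have nearly the same median in both states.

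Among the ligands, Wnt11 showed the widest separation. Wnt11, a ligand known mainly for noncanonical signalling, was at 74.8 to 166 normalized counts in the resting-hair libraries (median 97.3, n = 12). In growing-hair skin it was at 563 and 1115 in WT 1 and 4, at 1021, 995 and 958 in N-IKKa 8, 9 and 11, and at 425 in C-IKKa 14. The medians were 10.0-fold apart, a log2 difference of 3.31, and the lowest growing-hair library was still above the highest resting-hair one.

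Wnt5a, a noncanonical ligand of the skin, ranged from 529 to 1022 normalized counts in resting-hair skin (median 742). Its growing-hair values were 1618 and 2958 in WT 1 and 4, 3290.3, 4004 and 2929 in N-IKKa 8, 9 and 11, and 1613 in C-IKKa 14. The ratio of medians was 3.97, and WT 1 and C-IKKa 14 were again the 2 lowest of the growing-hair libraries.

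The other ligands overlapped between hair states, and they moved both ways. Wnt4 had a median of 1714 normalized counts in growing-hair and 1066 in resting-hair skin, with the lowest growing-hair value (1364) just under the highest resting-hair one (1383). Wnt10b, a canonical ligand linked to the onset of hair growth, had medians of 709 and 261 (log2 difference 1.44). Wnt6 and Wnt5b were higher in median by 0.77 and 0.40 on the log2 scale.

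Lower medians in growing-hair skin were found for 6 ligands. Wnt7b was at 315.9 to 911 normalized counts (median 480.0) against 694 to 1114 (median 872), a log2 difference of −0.86. Only C-IKKa 14, at 911, stood within the resting-hair range, as the other growing-hair libraries reached at most 629. Wnt3, a canonical ligand of the follicle epithelium, lay in a narrow band of 714 to 817 in growing-hair skin (median 771) and at 749 to 1598 in resting-hair skin (median 1214). The remaining lower ligands were Wnt16 (−0.85), Wnt7a (−0.83), Wnt3a (−0.22) and Wnt10a (−0.11, log2 differences), of which Wnt10a was higher (0.067) against the resting-hair females alone.

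Compared per kilobase of exon over all 18 libraries, Wnt3 and Wnt4 were the most abundant ligands, with mean levels of 342 and 305 normalized counts per kb. Wnt7a was lowest at 4.23. The order of medians differed between hair states. In resting-hair skin Wnt3 was at 395, Wnt4 at 254, Wnt7b at 178, Wnt5b at 104, Wnt10a at 96.7 and Wnt5a at 94.9 normalized counts per kb. Growing-hair skin had Wnt4 at 409, Wnt5a at 376, Wnt3 at 250.7 and Wnt11 at 236 normalized counts per kb. In resting-hair skin Wnt11 was at 23.5 per kb.

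**Figure D2:**
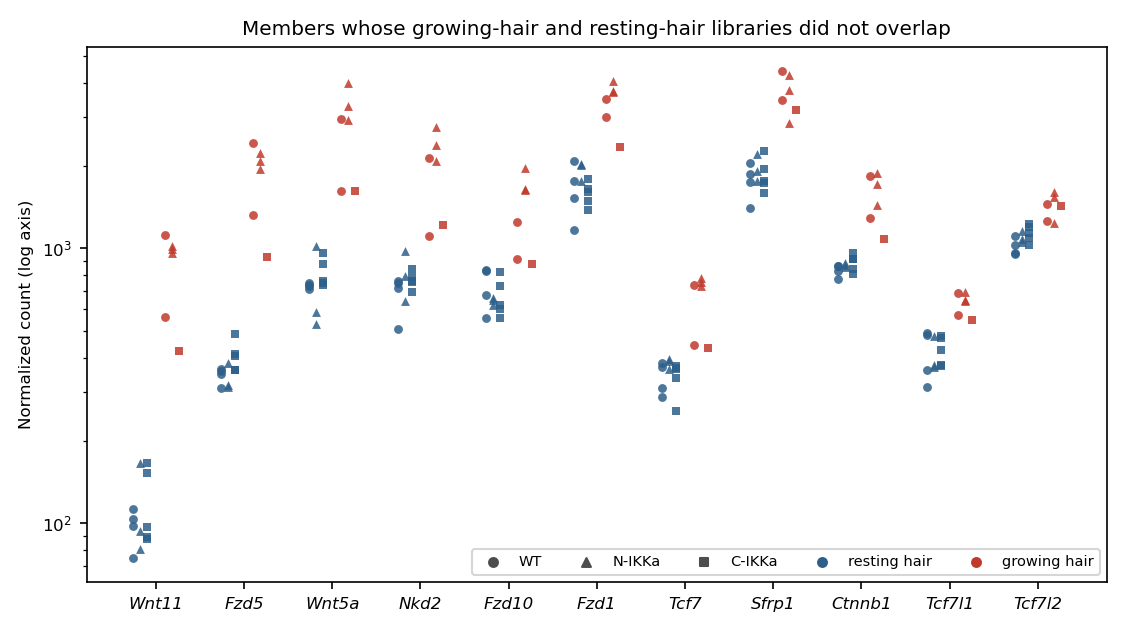
Normalized counts (log axis) in each of the 18 libraries for the 11 members whose growing-hair (red) and resting-hair (blue) libraries did not overlap, with symbols for the genotype. The gap is widest for Wnt11 and Fzd5, and the single C-IKKa growing-hair library is among the lowest red points for most genes.

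Of the receptors, 3 of 12 Frizzled and Lrp genes separated. Fzd5 was at 311 to 488 normalized counts in resting-hair skin (median 361). Its growing-hair values were 1326 and 2417 in WT 1 and 4, 1950.3, 2225 and 2085 in N-IKKa 8, 9 and 11, and 927 in C-IKKa 14. The ratio of medians was 5.59, and no library of one state entered the range of the other. Exons of Gm38058 on the opposite strand overlap 17.8% of the Fzd5 exon length, and the strand setting of the counting was not given in the sources used here.

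Fzd10 had a median of 1436 normalized counts in growing-hair skin (876 to 1957) and 655 in resting-hair skin (557 to 837). Fzd1 had a median of 3593 (2329.5 to 4059) against 1700.0 (1164 to 2078). For both receptors the medians were about one doubling apart, with log2 differences of 1.12 and 1.08, and C-IKKa 14 was the lowest growing-hair library.

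Fzd6, which acts in hair follicle orientation, and the co-receptor Lrp6 were higher in median by 0.69 and 0.45 on the log2 scale, with overlap. Fzd3 (0.50), Fzd2 (0.34) and Lrp5 (0.16) also had higher medians. Fzd7 differed little, at medians of 2627 and 2752 normalized counts. Per kilobase its median was above those of the other receptors in resting-hair skin (607 normalized counts per kb), while in growing-hair skin Fzd1 (856) was above Fzd7 (579.6). Fzd4, a receptor prominent in blood vessels, was lower in median (2164 against 3120), as were Fzd9 (16.8 against 31.5) and Fzd8 (196 against 214).

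Most of the listed antagonists bind Wnt proteins or their co-receptors outside the cell, and 1 of the 8 tested separated. Sfrp1, a secreted Frizzled-related protein that binds Wnt, was at 1401 to 2263 normalized counts in resting-hair skin (median 1814). In growing-hair skin it was at 3476 and 4401 in WT 1 and 4, at 3756, 2859.6 and 4250.2 in N-IKKa 8, 9 and 11, and at 3178 in C-IKKa 14. The ratio of medians was 1.99. Unlike most of the separated members, Sfrp1 had its lowest growing-hair value in N-IKKa 9.

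Dkk2, a secreted inhibitor that binds Lrp5 and Lrp6, went the other way, with a median of 389.5 normalized counts in growing-hair skin (198 to 762) and 811 in resting-hair skin (654.5 to 1390.0). WT 1, at 762, was the 1 growing-hair library within the resting-hair range, as C-IKKa 14 came next at 540.2. Dkk3 (log2 difference −0.47), Sfrp4 (−0.73) and Sfrp2 (−0.57) were also lower in median, although Sfrp2 was higher (0.31) against the resting-hair females alone. Wif1, a secreted protein that binds Wnt directly, had medians of 519 and 196 normalized counts, and its overlap came from the resting-hair C-IKKa libraries described below. The Dkk receptors Kremen1 and Kremen2 were higher in median by 0.25 and 1.12 on the log2 scale. Per kilobase, Sfrp1 was the most abundant antagonist, with a mean of 561 normalized counts per kb, and Kremen2 was at 18.9.

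Feedback targets, which canonical signalling induces and which in turn restrain it, did not share a direction. Nkd2, which binds Dishevelled, was at 508 to 976 normalized counts in resting-hair skin (median 756). Its growing-hair values were 1109 and 2131 in WT 1 and 4, 2379.9, 2763 and 2077 in N-IKKa 8, 9 and 11, and 1217 in C-IKKa 14. The ratio of medians was 2.78. Its relative Nkd1 had medians of 385 and 206, with overlap. The growing-hair libraries WT 1 (218) and C-IKKa 14 (270) lay below the highest resting-hair library, N-IKKa 7 (331). WT 1 also lay below resting-hair WT 3 (226) and C-IKKa 13, 15 and 16 (231, 232 and 246).

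Axin2, a scaffold of the β-catenin destruction complex and a common readout of canonical signalling, was lower in median in growing-hair skin, at 1039 normalized counts against 1364 (log2 difference −0.39). Against the resting-hair females alone the difference was −0.058. Apcdd1, a membrane-bound inhibitor, had medians of 3616 and 3629. Notum, a secreted enzyme that removes the lipid from Wnt proteins, was scarce, with 10.1 to 29.4 normalized counts in growing-hair skin and 0 to 35.2 in resting-hair skin, where a value of 0 allows up to 3 reads (2.45 to 3.61 normalized counts, depending on the library). The Notum medians were 19.6 in growing-hair and 3.29 in resting-hair skin, a log2 difference of 2.27, or 0.87 against the resting-hair females alone. Exons on the opposite strand overlap 38.1% of the Notum exon length.

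All 4 transducers separated between hair states. Ctnnb1 was at 772 to 958 normalized counts in resting-hair skin (median 863). It was at 1286 and 1838 in WT 1 and 4, at 1708, 1882 and 1432 in N-IKKa 8, 9 and 11, and at 1079.5 in C-IKKa 14. The ratio of medians was 1.82, and exons of Ulk4 on the opposite strand overlap 14.6% of the Ctnnb1 exon length.

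Tcf7, a TCF/LEF factor that acts with β-catenin, had a median of 733 normalized counts in growing-hair skin (433 to 779) and 366 in resting-hair skin (256 to 396). Tcf7l1, a TCF factor with mainly repressive function in follicle stem cells, had medians of 646 (551 to 693) and 402 (314 to 493). Tcf7l2 was closest, with medians of 1441 (1235 to 1607) and 1084 (956 to 1223). The log2 differences were 0.999 for Tcf7, 0.69 for Tcf7l1 and 0.41 for Tcf7l2.

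Within the 6 growing-hair libraries, WT 1 and C-IKKa 14 were the 2 lowest for 9 of the 11 separated members, the exceptions being Sfrp1 and Tcf7l2. The same order held for 784 of the 1493 tested genes that stood above in growing-hair skin (52.5%). This ordering was chosen after the values were seen.

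A wider list held 62 other Wnt pathway genes, of which 57 were tested. In growing-hair skin 10 stood above (17.5%, beside 8.45% of all tested genes) and 2 stood below, where 5.25% of all tested genes did. Lef1, the TCF/LEF factor of the hair matrix, was at 57.3 to 405 normalized counts in resting-hair skin (median 142) and at 906 to 2524 in growing-hair skin (median 1935), a log2 difference of 3.75. Ror2, a co-receptor for Wnt5a, differed by 2.01, Porcn, which adds the lipid to Wnt proteins, by 1.14, and the corepressor Tle3 by 1.08 on the log2 scale. Dkkl1 (−1.11) and the antagonist receptor Lrp4 (−0.97) were the 2 below.

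Markers of some skin cell types differed between hair states. Over all tested genes, 8.45% stood above and 5.25% stood below in growing-hair skin. In growing-hair skin 28 of 29 hair shaft genes stood above, with summed levels of 76.9 to 323 k (kilocounts, normalized) against 0.400 to 5.43 k. The hair states were split on the mean of this same list, so its separation follows from the split. For melanocytes 5 of 8 markers stood above (6.52 to 17.7 k against 2.08 to 4.13 k), and for dermal papilla 2 of 8 (1.97 to 3.96 against 0.988 to 2.43 k). Keratinocyte markers had 2 of 12 below (sums of 134 to 187 against 184 to 249 k), fibroblast markers 2 of 8 (29.2 to 71.9 against 46.0 to 407 k) and immune markers 1 of 9 (4.26 to 11.2 against 9.91 to 15.4 k). No marker separated for skeletal muscle (15.8 to 167 against 61.4 to 194 k), adipocytes (20.5 to 61.6 against 36.7 to 94.8 k) or endothelium (1.41 to 3.37 against 2.60 to 4.34 k). Among these lists some libraries had Slc45a2 (melanocyte), Cd8a (immune), Fgf7 (dermal papilla) and Tchh (hair shaft) at 0, and many hair shaft genes were at 0 in resting-hair libraries. Their part in the Wnt differences was not tested.

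Whether IKKα in either compartment changed Wnt genes was read next from all 18 libraries. No member was called in N-IKKa against WT, where 0.00566% of all tested genes were called higher and 0% lower, nor in C-IKKa against WT (0.345% higher and 0% lower). No member was called in N-IKKa against C-IKKa either (0.00566% higher and 0.425% lower, all by limma at an adjusted p below 0.05). At an unadjusted p below 0.05 there were 4, 2 and 10 members in these comparisons (9.76%, 4.88% and 24.4% of the 41), beside 4.14%, 5.73% and 11.7% of all tested genes. On the same comparisons edgeR and DESeq2 on recovered reads also called 0 members in each. The hair states were unevenly spread, with 3 growing-hair libraries among the N-IKKa mice, 2 among WT and 1 among C-IKKa.

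The fold changes of the members were mostly small beside their errors. In N-IKKa 33 of 41 members had positive values, with a median of 0.18 on the log2 scale beside 0.0057 for all tested genes. In C-IKKa 11 were positive and 30 negative, with a median of −0.11 beside 0.00028 for all tested genes. By role, the median in N-IKKa was 0.22 for ligands, 0.12 for receptors, 0.040 for antagonists, 0.63 for feedback targets and 0.21 for transducers, and in C-IKKa it was −0.14, −0.19, −0.10, −0.028 and −0.12. Both sets of values share the WT libraries. Without the 6 growing-hair libraries, 24 of 41 members were positive in N-IKKa, and the medians were −0.030 for ligands, −0.052 for receptors, 0.13 for antagonists, 0.23 for feedback targets and 0.091 for transducers. In C-IKKa 20 were then positive and 21 negative, with medians of −0.045, −0.049, −0.10, 0.11 and 0.078 in the same order.

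**Figure D3:**
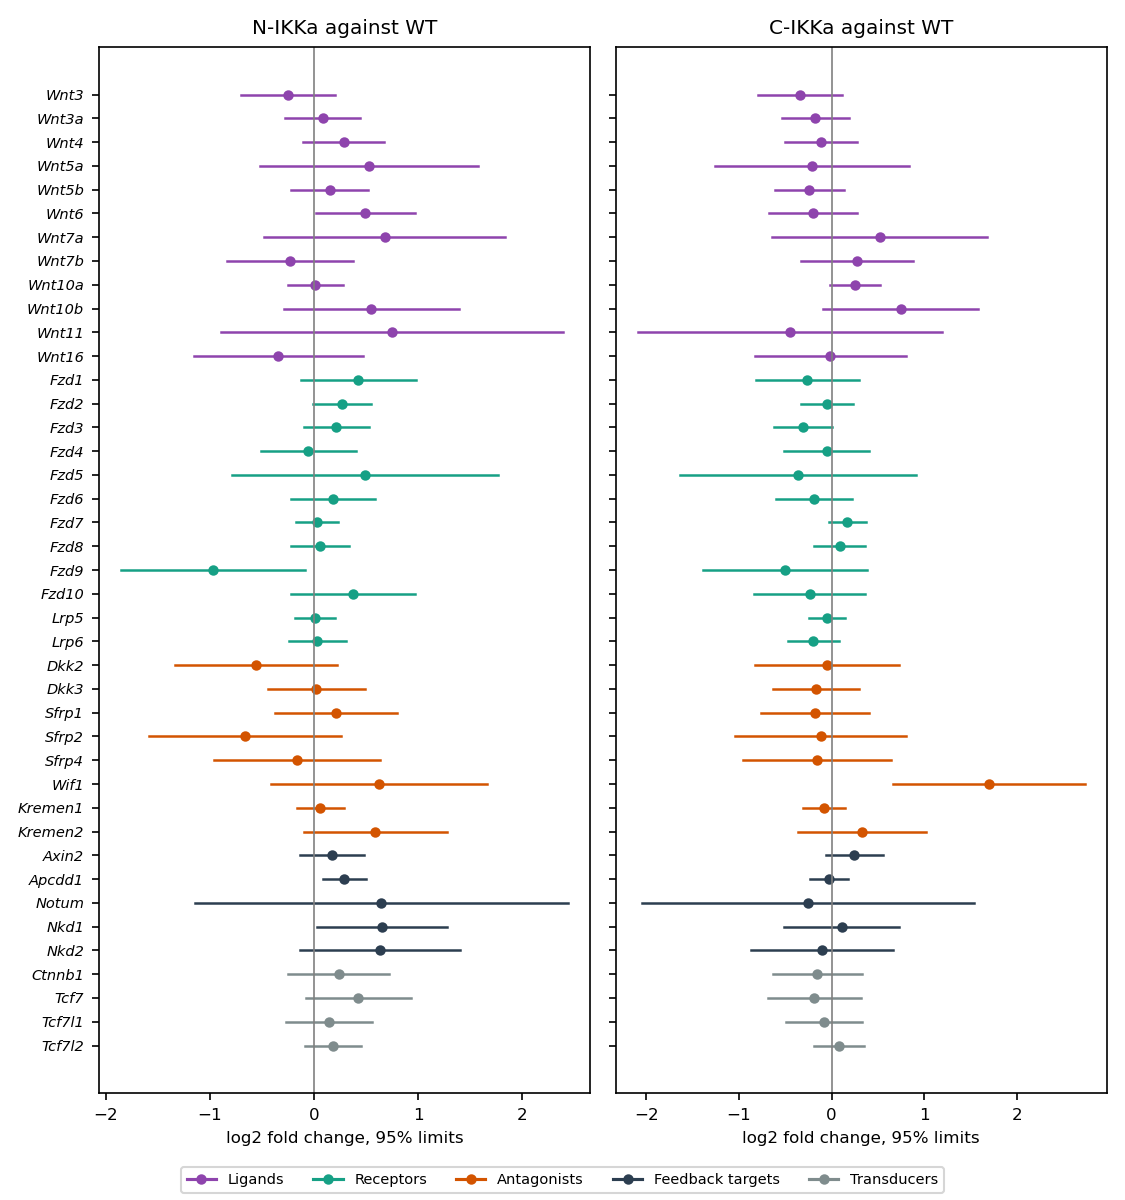
Log2 fold changes (points) with 95% limits (lines) of the 41 tested members in N-IKKa and C-IKKa against WT over all 18 libraries, coloured by role; the horizontal scales of the panels differ slightly. Limits are widest for Wnt11, Fzd5 and Notum, and Wif1 in C-IKKa lies farthest from 0.

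In N-IKKa, Apcdd1 had the smallest p among the members. Its normalized counts spanned 2848 to 4394 among WT mice (median 3535), 3726 to 4953 among N-IKKa mice (median 4172) and 3216 to 3839.6 among C-IKKa mice (median 3408), so the groups overlapped. Its log2 fold change in N-IKKa was 0.29 (SE 0.10, limma adjusted p = 0.88). Nkd1 (0.65, SE 0.30) was the other feedback target with the smallest p, and its limma adjusted p was also 0.88.

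The other members with the smallest p of their role in N-IKKa had the same limma adjusted p of 0.88. They were the ligands Wnt6 (log2 fold change 0.49, SE 0.23) and Wnt4 (0.28, SE 0.18), and the receptors Fzd9 (−0.97, SE 0.42) and Fzd2 (0.27, SE 0.13). Among antagonists and transducers they were Kremen2 (0.59, SE 0.33), Sfrp2 (−0.66, SE 0.44), Tcf7 (0.43, SE 0.24) and Tcf7l2 (0.18, SE 0.13).

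In C-IKKa, Wif1 had the smallest p. Normalized counts of Wif1 ran from 96.5 to 417 among WT mice (median 168), from 129 to 869.6 among N-IKKa mice (median 333) and from 290.1 to 886 among C-IKKa mice (median 730.0). The log2 fold change in C-IKKa was 1.70 (SE 0.49, limma adjusted p = 0.301), and WT and C-IKKa overlapped through the growing-hair WT libraries. Among the ligands Wnt10a (0.25, SE 0.13, limma adjusted p = 0.903) and Wnt10b (0.74, SE 0.40, limma adjusted p = 0.954) followed.

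The receptors Fzd3 (log2 fold change −0.31, SE 0.15) and Fzd7 (0.17, SE 0.10) had limma adjusted p values of 0.872 and 0.96 in C-IKKa. Kremen2 (0.33), Axin2 (0.24), Nkd1 (0.11), Tcf7 (−0.19) and Ctnnb1 (−0.15) had limma adjusted p values between 0.979 and 0.989. None of these can be told from the spread between mice.

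Among the 57 other Wnt genes 0 were called by limma in any comparison, with 4, 3 and 9 at an unadjusted p below 0.05 (7.02%, 5.26% and 15.8%, beside the 4.14%, 5.73% and 11.7% of all tested genes). Lgr6, a receptor for R-spondins and a marker of stem cells of the upper follicle, was at 909.9 to 1738 normalized counts for WT, 874 to 1729 for N-IKKa and 1704 to 2389 for C-IKKa. Its log2 fold change in C-IKKa was 0.70 (SE 0.18, limma adjusted p = 0.166), and DESeq2 called it there. The share of all tested genes that DESeq2 called is not given here. Wnt2 in C-IKKa (−0.96, SE 0.29, limma adjusted p = 0.359) and, in N-IKKa, Rnf43 (0.36, SE 0.13) and Frzb (−0.66, SE 0.27), both with a limma adjusted p of 0.88, were the others with the smallest p against WT. In N-IKKa against C-IKKa they were Lgr6 (−0.65, SE 0.18, limma adjusted p = 0.196) and Prickle2 (0.45, SE 0.14, limma adjusted p = 0.278).

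Comparing only the 12 resting-hair libraries (4 WT, 3 N-IKKa and 5 C-IKKa) brought out 2 members, Wif1 and Wnt10b. Both rose in C-IKKa against WT, where 0.866% of all tested genes were called higher and 0.0566% lower, and both were lower in N-IKKa than in C-IKKa, where 0.266% were called lower and 0.0226% higher. No member was called in N-IKKa against WT (0.0113% of tested genes higher, 0% lower), and edgeR called 0 there as well. An unadjusted limma p below 0.05 was found there for 1 member (Dkk3), beside 1231 of all 17667 tested genes. For C-IKKa over WT the count was 6 members, beside 2226 genes. Between the transgenic groups it was 7 members, beside 1220 genes. Wif1 and Wnt10b were higher in all 5 resting-hair C-IKKa libraries than in any resting-hair WT or N-IKKa library, as were 1.06% of all tested genes. Wnt3, which was not called, was at 1233 to 1598 normalized counts in resting-hair WT libraries and at 749 to 1200 in C-IKKa. Its resting-hair N-IKKa range (1034 to 1491) overlapped those of the other groups. The share of all tested genes with C-IKKa below WT alone was not counted, so the Wnt3 ranges are given as values only.

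Wif1 was at 212, 96.5, 125 and 122 normalized counts in resting-hair WT 2, 3, 5 and 6. It was at 180.0, 131 and 129 in N-IKKa 7, 10 and 12, and at 595, 290.1, 765, 739.5 and 720.4 in C-IKKa 13, 15, 16, 17 and 18. All C-IKKa libraries were above the others, with C-IKKa 15 the lowest of them. The log2 fold change against WT was 2.14 (SE 0.28, limma adjusted p = 0.00246), or 4.40-fold, and N-IKKa against C-IKKa gave −2.01 (SE 0.30, limma adjusted p = 0.00928). N-IKKa against WT gave 0.13 (limma adjusted p = 0.966). In growing-hair skin Wif1 was at 417 and 406 in WT, 552, 869.6 and 486 in N-IKKa and 886 in the single C-IKKa library, so the resting-hair C-IKKa libraries other than C-IKKa 15 lay within the growing-hair range.

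Wnt10b was at 256, 169, 265 and 253 normalized counts in resting-hair WT 2, 3, 5 and 6. It was at 192, 192 and 228 in N-IKKa 7, 10 and 12, and at 549, 332, 433, 436 and 501 in C-IKKa 13, 15, 16, 17 and 18. The C-IKKa libraries stood apart from both other groups here too. The log2 fold change against WT was 0.93 (SE 0.16, limma adjusted p = 0.0157), or 1.91-fold, and N-IKKa against C-IKKa gave −1.12 (SE 0.17, limma adjusted p = 0.0109). In growing-hair skin Wnt10b was at 380.0 and 476 in WT, 876, 946 and 742 in N-IKKa and 676 in C-IKKa.

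**Figure D4:**
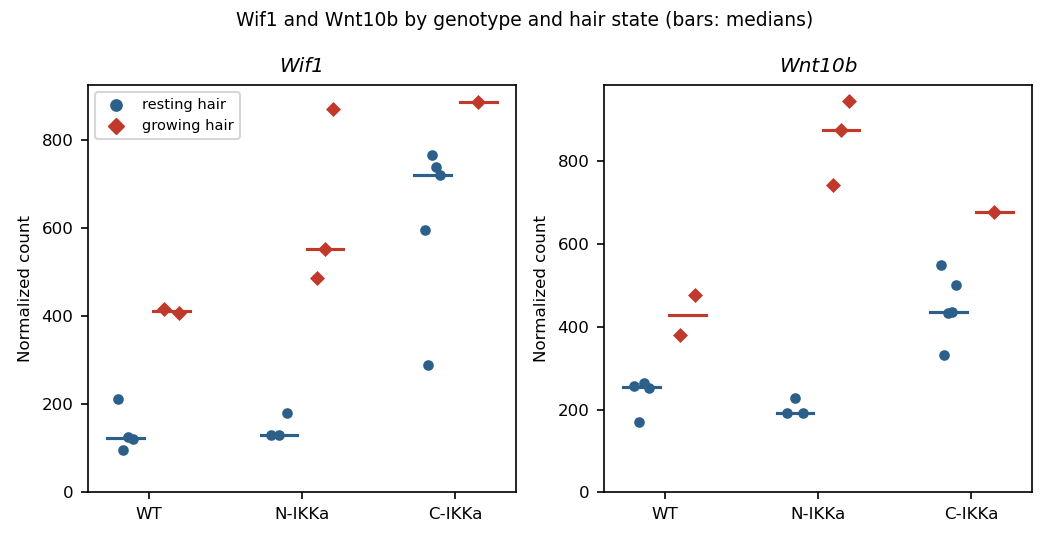
Normalized counts of Wif1 and Wnt10b in each library, by genotype, for resting-hair (blue circles) and growing-hair (red diamonds) libraries, with bars at the medians. The 5 resting-hair C-IKKa libraries sit at 290.1 to 765 for Wif1 and 332 to 549 for Wnt10b, above all resting-hair WT and N-IKKa libraries.

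The Wif1 call in C-IKKa against WT held without each of the 12 libraries in turn (log2 fold change 1.99 to 2.39, limma adjusted p 4.14e-05 to 0.0129). The Wnt10b call was lost without C-IKKa 13, 16 or 17 (0.86, 0.94 and 0.94, limma adjusted p = 0.052, 0.0539 and 0.0535). In N-IKKa against C-IKKa, the Wif1 call was lost without N-IKKa 10 or 12 (−1.94 and −1.93, limma adjusted p = 0.0693 and 0.0694) and the Wnt10b call without N-IKKa 7 or 10 (−1.08 in both, limma adjusted p = 0.0762 and 0.0757). With all 18 libraries and the hair shaft mean as a covariate, Wif1 was called in C-IKKa against WT (1.88, SE 0.28, limma adjusted p = 0.00119) and Wnt10b was not (0.90, limma adjusted p = 0.0557), where 0.849% of all tested genes were called higher and 0.0566% lower. With sex as a further covariate both were called (1.97 and 0.97, limma adjusted p = 0.00104 and 0.0455), against 0.792% of tested genes higher and 0.0453% lower. N-IKKa against C-IKKa gave −1.48 and −1.54 for Wif1 in these fits (limma adjusted p = 0.0119 and 0.00939), with 0.872% and 0.94% of tested genes called lower and 0.0566% and 0.0792% higher. Wnt10b was not called in this contrast in either fit (−0.54 and −0.58, limma adjusted p = 0.374 and 0.317), beside −1.12 among the resting-hair libraries.

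Hair shaft values were not equal among the resting-hair groups. The hair shaft mean was 1.91 to 4.31 for WT (median 2.17), 1.97 to 3.80 for N-IKKa (median 2.28) and 1.85 to 4.88 for C-IKKa (median 3.95). The covariate fits with this mean spanned all 18 libraries and both hair states. No fit used it among the 12 resting-hair libraries, so its part in their Wif1 and Wnt10b differences was not tested. Males made up 2 of 4 WT, 2 of 3 N-IKKa and 4 of 5 C-IKKa resting-hair libraries, and with sex as a covariate among these 12 libraries the log2 fold change in C-IKKa was 2.23 for Wif1 and 0.98 for Wnt10b (limma adjusted p = 0.00129 and 0.00999). Of the marker lists, 1 dermal papilla marker of 8 was lower in all resting-hair C-IKKa libraries, with list sums of 1.36 to 2.06 k for WT, 1.56 to 2.03 k for N-IKKa and 0.988 to 2.43 k for C-IKKa, and no marker of the other lists separated. Immune sums were 9.91 to 13.1 k for WT, 10.2 to 13.8 k for N-IKKa and 10.1 to 15.4 k for C-IKKa, and keratinocyte sums were 192 to 219 k, 203 to 213 k and 184 to 249 k. Skeletal muscle sums were 118 to 194 k for WT, 63.4 to 93.8 k for N-IKKa and 61.4 to 151 k for C-IKKa, so that WT and N-IKKa did not overlap. Adipocyte sums were 56.5 to 94.8 k, 43.8 to 68.8 k and 36.7 to 67.7 k, fibroblast sums 46.0 to 370 k, 73.7 to 407 k and 53.4 to 283 k, endothelial sums 3.15 to 4.34 k, 2.90 to 3.44 k and 2.60 to 3.71 k, and melanocyte sums 2.08 to 2.70 k, 2.42 to 2.59 k and 2.13 to 4.13 k, in the same order. Their part in the group differences was not tested. The dermal papilla marker was the R-spondin gene Rspo3, also the 1 of the 57 other Wnt genes below in C-IKKa, where 0.226% of all tested genes were. Lef1 was at 57.3 to 119 normalized counts for resting-hair WT, 112 to 155 for N-IKKa and 141 to 405 for C-IKKa, with a log2 fold change of 1.33 in C-IKKa that did not pass the test (SE 0.30, limma adjusted p = 0.0521).

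Wnt11, Fzd5 and Wnt5a had the largest median differences among the 11 members that separated the hair states. None of them separated C-IKKa from the other groups among the resting-hair libraries. Wnt11 was at 74.8 to 113 normalized counts for WT, 81.0 to 165 for N-IKKa and 87.7 to 166 for C-IKKa. Fzd5 was at 311 to 363, 313 to 384 and 359.9 to 488, and Wnt5a was at 709 to 748, 529 to 1022 and 739 to 962, in the same order. The groups overlapped for all 3 genes, and the Fzd5 medians were 353, 317 and 406 in that order.

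Dkk4 was too scarce for the fit across genes. It reached at most 3.42 normalized counts among WT mice, 8.35 among N-IKKa mice and 3.58 among C-IKKa mice, with values of 0 in each group, mostly near or under the limit set by 3 reads. By hair state, Dkk4 was at 0 to 8.35 in growing-hair skin (median 4.04) and at 0 to 3.58 in resting-hair skin (median 1.05). The highest N-IKKa values were in the growing-hair libraries 8, 9 and 11 (4.66, 7.57 and 8.35). The difference of mean log2 values was 0.34 for N-IKKa against WT (exact permutation p = 0.626), −0.53 for C-IKKa against WT (exact permutation p = 0.294) and 0.87 for N-IKKa over C-IKKa (exact permutation p = 0.242). These two-sided tests of 6 mice against 6 formed a family of 3, their adjusted p values were 0.442 or more, and the smallest possible p was 0.00216.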

How the data were processed

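Messenger RNA of back skin was sequenced from each of 18 mice. Per the submitters' processing notes, reads were assigned to genes with featureCounts on GRCm39; which aligner, annotation release, strand setting and scaling tool were used is not given in the sources used here. Deposited values are a signal per gene and library, normalized counts on a scale the authors set. Dividing each library by its smallest step turned 100% of its non-zero entries into whole reads (tolerance 0.001 reads), and these recovered counts were used for edgeR and DESeq2. One read was worth 0.816 to 1.20 normalized counts. The limit of 3 reads given for a value of 0 covers counting error only, whereas SEs and 95% limits of fold changes come from the spread between mice. The closest pair of libraries differed by a chi-square of 5.86 per gene, so none was a copy.

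Analysis used log2(normalized count + 1) of the 17667 genes with at least 10 in at least 6 libraries. A mean per group was fitted with limma 3.58.1 (R 4.3.3, mean-variance trend, 15 residual degrees of freedom), with Benjamini-Hochberg adjustment over all tested genes within a contrast and calls at 0.05. Fold changes are on this log2 scale. Growing-hair libraries had a hair shaft mean over 8 (29 of 30 listed genes used), and males had Ddx3y over 500. Exon lengths and overlaps came from GENCODE M21 for the earlier build GRCm38, matched by identifier for 52081 of 55357 genes. Statistics are given for called members or the 2 with the smallest p of each role against WT, and values for members whose hair states did not overlap. The members and lists were chosen with earlier results of these data known. The model was also run on simulated counts that held no hair-state or sex differences, so that run cannot show how the fit handles these. Alternatives were other pseudocounts (0.5 and 5), filters, scalings, covariates, edgeR 4.0.16, DESeq2 1.42.0 and left-out libraries.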

Additional observations from a re-analysis of the deposited data

Results flagged for a closer look

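In 7 of 123 sets of 6 libraries (41 members in 3 genotype groups), 1 library lay far from the other 5 by a test of gaps that chance passes in about 1 in 20 sets, or 6.15 of these. C-IKKa 14, the single growing-hair library of its group, was high for Wnt5a (1613 normalized counts, others 739 to 962), Fzd5 (927, others 360 to 488), Nkd2 (1217, others 695 to 842) and Lrp6 (2598, others 2132 to 2281). WT 4, also a growing-hair library, was high for Lrp6 (3663, others 2242 to 2645). N-IKKa 9 was low for Fzd8 (159, others 203 to 235). C-IKKa 15 was low for Wif1 (290.1, others 595 to 886).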

How the results depend on the processing

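Without the 6 growing-hair libraries, 2 members were called higher in C-IKKa against WT and 2 lower in N-IKKa against C-IKKa, in place of 0. In C-IKKa against WT, 1 member (Wif1) was called with a sex covariate, 1 with the hair shaft covariate and 2 with both, and in N-IKKa against C-IKKa 1 (Wif1) with the hair shaft covariate and 1 with both. Of the other Wnt genes, 1 (Lgr6) was called higher in C-IKKa against WT with either hair covariate fit and 1 with DESeq2. In N-IKKa against C-IKKa 1 (Prickle2) was called higher in either hair covariate fit, and 1 (Lgr6) lower with hair and sex. Further alternatives for the 12 resting-hair libraries (each left out, sex, edgeR) were added after the data were seen. Leaving out each, 1 to 2 members were called higher and 0 to 1 lower in C-IKKa against WT, and 0 to 2 lower in N-IKKa against C-IKKa, with 0 to 2 other Wnt genes higher and 0 to 1 lower in C-IKKa against WT; with sex, 2 other Wnt genes were higher. For the fits with sex as the only covariate, DESeq2, edgeR and left-out libraries, the share of all tested genes called is not given here. Calls in those fits therefore have no background to be read against. Growing-hair libraries stood below for 1 member among females and for 0 to 1 when leaving out each library (Dkk2 without WT 1, Wnt7b without C-IKKa 14).

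Signs turned for values that were not called. Without the growing-hair libraries, C-IKKa against WT became 0.094 for Ctnnb1 and 0.0074 for Tcf7, N-IKKa against WT −0.19 for Wnt10b and −1.09 for Dkk4, and N-IKKa against C-IKKa −0.43 for Dkk4. Leaving out each library, Ctnnb1 in C-IKKa against WT ran from −0.24 to 0.015 (positive without WT 4) and Nkd1 from −0.058 (without WT 5) to 0.27. Wnt10b in N-IKKa against C-IKKa ran from −0.43 to 0.027 (positive without N-IKKa 7 or 10) and was 0.12 with edgeR or DESeq2. Wif1 in N-IKKa against WT among resting-hair libraries ran from −0.028 to 0.35 (negative without WT 3 or N-IKKa 7). The cause was not tested. No paired analysis was possible because the groups share no replicate numbers. Hair state, sex and depth were unevenly spread over the groups, and 3 to 5 resting-hair libraries a group limit the precision. For Dkk4 and Notum the depth limits what could be seen.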
